A study of Mus musculus with 12 samples.

Results

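The genes described here are the mouse cytochrome P450 genes of families 1 to 4, measured on Affymetrix arrays of total RNA from liver. A probe set, the group of short probes that reports 1 transcript, was taken as a member when the array annotation gave it exactly 1 gene symbol and that symbol was Cyp, a digit from 1 to 4, a letter and a number. This held for 69 probe sets, and each gene was read from the brightest of its probe sets by the mean of all 12 arrays, which left 56 of the 18193 genes with a symbol. Family 1 had 3 genes, family 2 had 35, family 3 had 5 and family 4 had 13. Of these 56 genes, 50 passed the filter on dim probe sets and were tested among 14568 genes. The 6 that did not pass were Cyp2b19, Cyp2j11, Cyp3a16, Cyp4f18, Cyp4f39 and Cyp4x1. Cyp2d13 and Cyp4f41-ps are annotated as pseudogenes.

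The mice were C57Bl/6J animals 3 months old, either Ire1α conditional null or control, and liver was taken 8 hours after an intraperitoneal injection. Ire1α, encoded by Ern1, is a sensor of unfolded protein in the endoplasmic reticulum, and tunicamycin blocks the N-linked glycosylation of proteins there. The 4 groups held 3 arrays each, labelled biological replicates: control mice given dextrose vehicle (titled Fe+CRE+), control mice given tunicamycin at 2 µg per g body weight (Fe+CRE+Tm), null mice given vehicle (Fe-CRE+) and null mice given tunicamycin at the same dose (Fe-CRE+Tm). All 4 titles carry CRE+, so the controls share that element with the null mice. The promoter that drives Cre, the deleted part of Ern1 and the sex of the mice were not given in the sources used here. P-values measure the spread between these replicates.

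P450 enzymes of these families are heme proteins of the endoplasmic reticulum membrane that oxidise drugs, pollutants, steroids, fatty acids and bile acids with electrons from P450 reductase. Hepatocytes are their main site in the body. Family 1 is known as the target of the aryl hydrocarbon receptor, subfamily 2b of the constitutive androstane receptor, subfamily 3a of the pregnane X receptor and subfamily 4a of PPARα, and many family 2, 3 and 4 genes of mouse liver differ between the sexes under growth hormone.

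Close paralogs lie side by side in these families, so the proximal promoters of 2 groups of neighbours on which the results turn are shown first. Each is the 120 bases before the RefSeq transcription start, 5′ to 3′ on the gene's strand, from GRCm38.p6. On chromosome 7, Cyp2b10 (chr7:25897538-25897657, plus strand) rose after tunicamycin, while Cyp2b9 (chr7:26173289-26173408, plus strand) and Cyp2b13 (chr7:26061375-26061494, plus strand) did not pass the test. Capitals mark the bases of Cyp2b10 with no identical partner in the alignment to Cyp2b9, and the bases of the others with no identical partner in Cyp2b10, 27 in each.
Cyp2b10: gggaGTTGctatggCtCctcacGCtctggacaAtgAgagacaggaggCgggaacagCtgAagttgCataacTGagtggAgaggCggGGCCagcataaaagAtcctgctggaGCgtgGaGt
Cyp2b9: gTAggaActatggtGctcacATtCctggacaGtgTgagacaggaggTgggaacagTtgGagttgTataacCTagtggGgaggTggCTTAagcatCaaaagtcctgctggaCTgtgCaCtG
Cyp2b13: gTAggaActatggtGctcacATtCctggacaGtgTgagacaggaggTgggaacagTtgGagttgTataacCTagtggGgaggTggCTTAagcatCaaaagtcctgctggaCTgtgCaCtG
The Cyp2b9 and Cyp2b13 windows were identical over all 120 bases. Each shared 93 of 125 aligned columns with Cyp2b10, an identity of 74.4%.

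On chromosome 19, Cyp2c38 fell after tunicamycin, its neighbour Cyp2c39 varied from array to array within groups, and Cyp2c29, next to them, did not pass the test. Capitals mark a TATAAA match in Cyp2c38 (chr19:39463076-39463195, minus strand) and Cyp2c29 (chr19:39286965-39287084, plus strand), and Cyp2c39 (chr19:39347226-39347345, plus strand) has none in the window.
Cyp2c38: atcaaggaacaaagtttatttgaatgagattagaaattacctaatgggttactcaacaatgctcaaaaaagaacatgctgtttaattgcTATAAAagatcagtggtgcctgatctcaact
Cyp2c39: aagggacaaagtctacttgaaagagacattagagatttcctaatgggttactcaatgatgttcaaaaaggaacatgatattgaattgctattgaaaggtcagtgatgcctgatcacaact
Cyp2c29: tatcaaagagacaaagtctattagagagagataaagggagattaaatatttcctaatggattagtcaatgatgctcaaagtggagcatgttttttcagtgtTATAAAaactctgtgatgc
The Cyp2c38 and Cyp2c39 windows had 81.3% identity (100 of 123 columns), and each had less with Cyp2c29 (64.4% and 63.2%).

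The RefSeq table held promoters of 43 of the 56 genes, with none for Cyp2g1 or Cyp2u1, and the 250 bases before the start were searched on both strands for 9 motifs. TATAAA, the sequence of the TATA box, was matched on either strand in 17 of 43 P450 promoters (39.5%) against 13% of 27025 promoters. The matches of Cyp2j5, Cyp2d9, Cyp2d10, Cyp2d26, Cyp2d40 and Cyp2c70 were on the opposite strand. On the gene's strand, those of Cyp3a11, Cyp2c65, Cyp3a16 and Cyp3a44 began far from the start, at -234, -162, -126 and -122. AGGTCA, the core element of nuclear receptors, was in 11 (25.6% against 13.8%), among them those of Cyp2b9, Cyp2b13, Cyp2c39, Cyp3a11 and, with 2 matches, Cyp3a25. CAAAGTCCA, a site of HNF4, was in 5 (11.6% against 0.381%), those of Cyp2c65, Cyp2c68, Cyp2c70, Cyp3a11 and Cyp3a16. The aryl hydrocarbon receptor core GCGTG was in 10 (23.3% against 28.2%), among them those of Cyp1a1, Cyp1b1 and, with 2 matches, Cyp2b10. The C/EBP site TTGCNNCAA was in 2, those of Cyp2c37 and Cyp2c50 (4.65% against 1.78%). The ATF4 and C/EBP composite TGATGNAA was in 1, that of Cyp3a11 (2.33% against 3.53%). No P450 promoter held TTATGTAA, the D box of PAR bZIP factors (0.862% of all), TGACGTGG, the core of an unfolded protein response element (0.503%), or the HNF1 palindrome, GTTAAT and ATTAAC with any base between them (0.0074%). None of the 49 matches overlapped a match of another motif. A match says only that the letters are there.

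The values below are log2 of the deposited intensity plus 16 after quantile normalization, and a difference is the mean of the tunicamycin or null arrays minus that of the arrays they are set against, ± its standard error, with 3 arrays in each group. A gene was called when its limma p-value, adjusted by Benjamini and Hochberg over all 14568 genes, was under 0.05. A level is not compared between genes, because probe sets differ in brightness. The arrays had median deposited intensities of 37.4 to 45.3. On Fe-CRE+Tm replicate 2, 16 of 25 measured kidney marker genes exceeded their maximum elsewhere by more than 1 log2, by most for Fxyd2 (12.43 against 5.21), Calb1 (12.09 against 4.97), Kap (12.84 against 5.98) and Umod, the kidney tubule protein uromodulin (13.14 against 6.55). The summed intensity of the kidney list was 12028 to 52197 in the null tunicamycin group and 10510 to 12662 over the other groups, so P450 values that rest on that array are also given without it, and the gene lists by a count. Actin probe sets at the ends of the transcript, compared as 5′ over 3′, had a ratio of 0.328 ± 0.0533 (SD, n = 3) in control livers with tunicamycin against 0.757 ± 0.323 without, and of 0.309 ± 0.116 in null livers with tunicamycin against 0.50 ± 0.179 without. The control ranges did not overlap (0.295 to 0.389 against 0.454 to 1.10), and the null ranges did (0.205 to 0.434 against 0.296 to 0.633). The same ratio for Gapdh was 0.556 ± 0.0289 against 0.528 ± 0.220 in control and 0.401 ± 0.0327 against 0.372 ± 0.241 in null livers. Fits with each ratio as a covariate are given below. Hepatocyte markers were present in every group. Their summed deposited intensity was 129827 to 140287 with vehicle and 144589 to 154148 with tunicamycin in control livers. In null livers it was 136563 to 141293 with vehicle and 146279 to 154008 with tunicamycin, so the ranges overlapped in neither genotype. Xist was at 3508 to 6826 and the Y-linked probe sets at 1.1 to 26.8 on all 12 arrays. Of the 5 Ern1 probe sets, none was called between genotypes (null minus control -0.24 to 0.00 with vehicle and -0.37 to 0.10 with tunicamycin), which checks nothing where the deleted part is not known.

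Of the genes called after tunicamycin, Cyp2b10, Cyp2g1 and Cyp2c38 moved by more than 2-fold in both genotypes, and most P450 genes shifted by little. Cyp2b10 and Cyp2u1 rose in both genotypes, and Cyp2g1, Cyp2c38, Cyp2c54, Cyp2d40 and Cyp3a25 fell in both. In control livers 10 of the 50 tested genes were called, 2 higher and 8 lower, or 20%, against 25.0% of all genes tested (11.6% higher, 13.3% lower). In null livers 9 were called, 2 higher and 7 lower, or 18%, against 16.8% (7.59% higher, 9.23% lower). Family 2 held 9 of the 10 and 7 of the 9 calls. The difference between these shares was not tested. In control livers it turned with array quality weights (32% of P450 genes against 31.2% of all) and with a trended, robust variance estimate (26% against 25.7%). In null livers the shares were 8% and 15.0% without Fe-CRE+Tm replicate 2. The median difference of the 50 genes was -0.24 in control and -0.26 in null livers, beside -0.11 and -0.07 for all genes. In control livers 41 of the 50 differences were negative and 46 were smaller than 1 log2, and in null livers 37 were negative and 42 smaller than 1. With arrays centred on their medians and with the values as deposited, 36 and 33 were negative in control and 33 and 32 in null livers. Such counts were not taken over all genes. The vehicle and tunicamycin arrays did not overlap for 22 P450 genes in control livers (42.6% of all genes tested) and for 19 in null livers (33.1% of all genes).

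**Figure D1:**
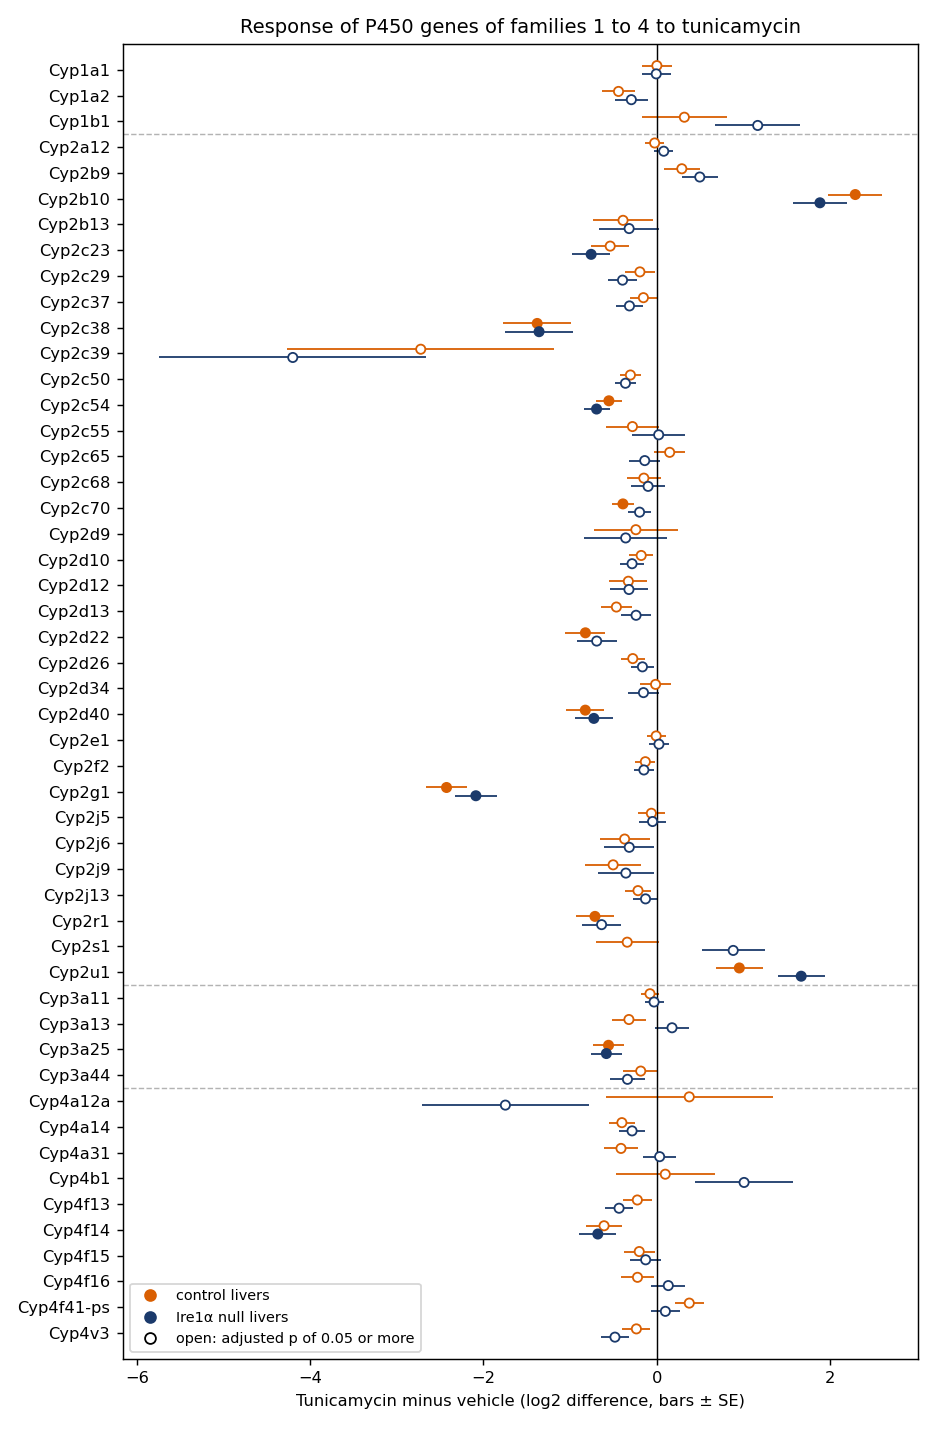
Difference between tunicamycin and vehicle (log2, ± standard error, 3 arrays in each group) for the 50 tested P450 genes by family, with control livers in orange, null livers in dark blue and called genes filled. Cyp2b10 (2.29 and 1.89) stands at the upper end and Cyp2g1 (-2.43 and -2.09) at the lower end of the called genes, while most points lie within 1 log2 of 0.

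These counts depended on single arrays. In control livers 10 calls became 2 without Fe+CRE+ replicate 3 (Cyp2b10 and Cyp2g1), 4 without Fe+CRE+Tm replicate 1 and 3 without Fe+CRE+Tm replicate 2. These were 4%, 8% and 6% of the tested P450 genes, against 18.8%, 19% and 17.7% of all genes. In null livers 9 became 5 without Fe-CRE+ replicate 1 (10%, against 11.1% of all genes) and 4 without Fe-CRE+ replicate 2 (8% against 14%). Without Fe-CRE+Tm replicate 2 they became 4 (2 higher, 2 lower), where 15.0% of all genes were called (7.08% higher, 7.93% lower). Those last 4 were Cyp2b10, Cyp2u1, Cyp2g1 and Cyp2c54. Leaving out that array also changed the control comparison, through the shared estimate of the spread, to 12 calls (2 higher, 10 lower; 27.9% of all genes, 12.6% higher and 15.3% lower), with Cyp2c23 and Cyp4a14 added. With the actin ratio as a covariate, 2 genes were called in control livers, again Cyp2b10 and Cyp2g1 (4%, against 12.1% of all genes). The ranges of that ratio did not overlap between the control groups, so this fit cannot fully separate the ratio from the treatment there. In null livers 7 were called with the actin ratio as a covariate (14% against 12.4%). With the Gapdh ratio as a covariate, 11 were called in control (22% against 26%) and 9 in null livers (18% against 17.6%).

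The scaling of the arrays also bore on the counts. Among all genes called in control livers, 46.6% were higher (1693 higher, 1943 lower), but 64% (2100 and 1181) with arrays only centred on their medians and 65.9% (2062 and 1068) with the values as deposited. In null livers these shares were 45.1% (1105 and 1344), 64.1% (1256 and 703) and 74.3% (1477 and 512). The median difference of all genes moved in control livers from -0.11 to -0.01 and 0.01, and in null livers from -0.07 to 0.01 and 0.08. Relative to it the P450 median was -0.13, -0.10 and -0.10 in control livers and -0.19 under all 3 scalings in null livers. Both other scalings called 4 P450 genes in control livers, Cyp2b10, Cyp2u1, Cyp2g1 and Cyp2d40. That was 8% of those tested, against 22.5% of all genes with centred arrays and 21.5% as deposited. In null livers these scalings called 5 (Cyp2b10, Cyp2u1, Cyp2g1, Cyp2c54 and Cyp2d40) and 4 (without Cyp2d40). Those were 10% and 8%, against 13.4% and 13.7% of all genes. In a bulk sample, fewer cells of a type and less RNA per cell cannot be told apart.

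Cyp2b10, the phenobarbital-inducible enzyme that serves as the usual readout of the constitutive androstane receptor, was the member that rose most. Its values were 10.39, 10.99 and 10.24 in control vehicle and 12.69, 12.83 and 12.98 in control tunicamycin livers. In null livers they were 10.15, 10.50 and 10.17 with vehicle and 11.32, 12.43 and 12.73 with tunicamycin. No vehicle array reached any tunicamycin array of either genotype. The difference was 2.29 ± 0.31, or 4.91-fold, in control livers (limma adjusted p = 0.000231; 95% interval 1.61 to 2.98) and 1.89 ± 0.31, or 3.7-fold, in null livers (adjusted p = 0.00167; 1.21 to 2.57). Without Fe-CRE+Tm replicate 2 the null difference was 1.74 (limma adjusted p = 0.00589). All 3 Cyp2b10 probe sets were higher, by 2.29, 2.58 and 3.06 in control and 1.89, 2.10 and 2.30 in null livers. As deposited, the intensity of the brightest was 1062 to 1896 in control vehicle and 7047 to 8289 in control tunicamycin livers.

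The 2 neighbours with promoters shown above did not pass the test. Cyp2b9, a female-biased steroid hydroxylase, had 12.39, 11.61 and 11.57 in control vehicle and 12.13, 12.11 and 12.20 in control tunicamycin livers, then 11.40, 11.50 and 11.35 and 12.14, 11.63 and 11.98 in null livers. The control groups overlapped and the null groups did not, and the differences were 0.29 ± 0.21 and 0.50 ± 0.21 (limma adjusted p = 0.353 and 0.134). Cyp2b13, also female-biased, had 11.91, 11.98 and 11.29 in control vehicle and 11.53, 10.995 and 11.50 in control tunicamycin livers. In null livers it had 11.78, 11.18 and 10.77 with vehicle and 11.53, 10.19 and 11.06 with tunicamycin. Its groups overlapped in both genotypes, with differences of -0.39 ± 0.34 and -0.32 ± 0.34 (limma adjusted p = 0.458 and 0.586). Whether the probes of such close paralogs bind each other's transcripts was not tested.

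Cyp2u1, which hydroxylates long-chain fatty acids, was the other gene that rose. It was dim, with 5.64, 5.27 and 4.57 in control vehicle and 6.45, 5.86 and 6.04 in control tunicamycin livers, then 4.96, 5.12 and 5.55 in null vehicle and 7.18, 6.61 and 6.84 in null tunicamycin livers. Tunicamycin and vehicle arrays did not overlap in either genotype. As deposited, its intensity was 7.24 to 34.3 in control vehicle and 42.8 to 76.3 in control tunicamycin livers, and 15.3 to 28.2 against 79.4 to 147 in null livers, with vehicle values below the array medians. The difference on the log2(value + 16) scale, which understates the change of so dim a gene, was 0.96 ± 0.27 in control (limma adjusted p = 0.0232) and 1.67 ± 0.27 in null livers (adjusted p = 0.00156), and 1.81 without Fe-CRE+Tm replicate 2 (adjusted p = 0.00219). Its other probe set had differences of -0.03 and 0.20, so the 2 probe sets of this gene disagreed. With a pseudocount of 1 in place of 16 that other probe set became the one chosen, and the control value was -0.046. Over all alternatives the difference ran from -0.046 to 1.20 in control and from 0.27 to 1.85 in null livers.

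Cyp2g1, which lies in the same cluster on chromosome 7 and is known from olfactory mucosa as a steroid hydroxylase, was the member that fell most among those called. Its values were 8.49, 8.73 and 8.16 in control vehicle and 6.20, 5.90 and 6.00 in control tunicamycin livers, with 8.63, 7.75 and 8.04 and 6.16, 5.69 and 6.31 in null livers. The lowest vehicle array of either genotype lay above the highest tunicamycin array. The difference was -2.43 ± 0.24 in control livers (limma adjusted p = 2.25e-05; 95% interval -2.95 to -1.90) and -2.09 ± 0.24 in null livers (adjusted p = 0.000148), which is 4.25-fold lower. Without Fe-CRE+Tm replicate 2 it was -1.91 (adjusted p = 0.000451). Deposited intensities were 199 to 377 with vehicle and 35.4 to 73.0 with tunicamycin over both genotypes.

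**Figure D2:**
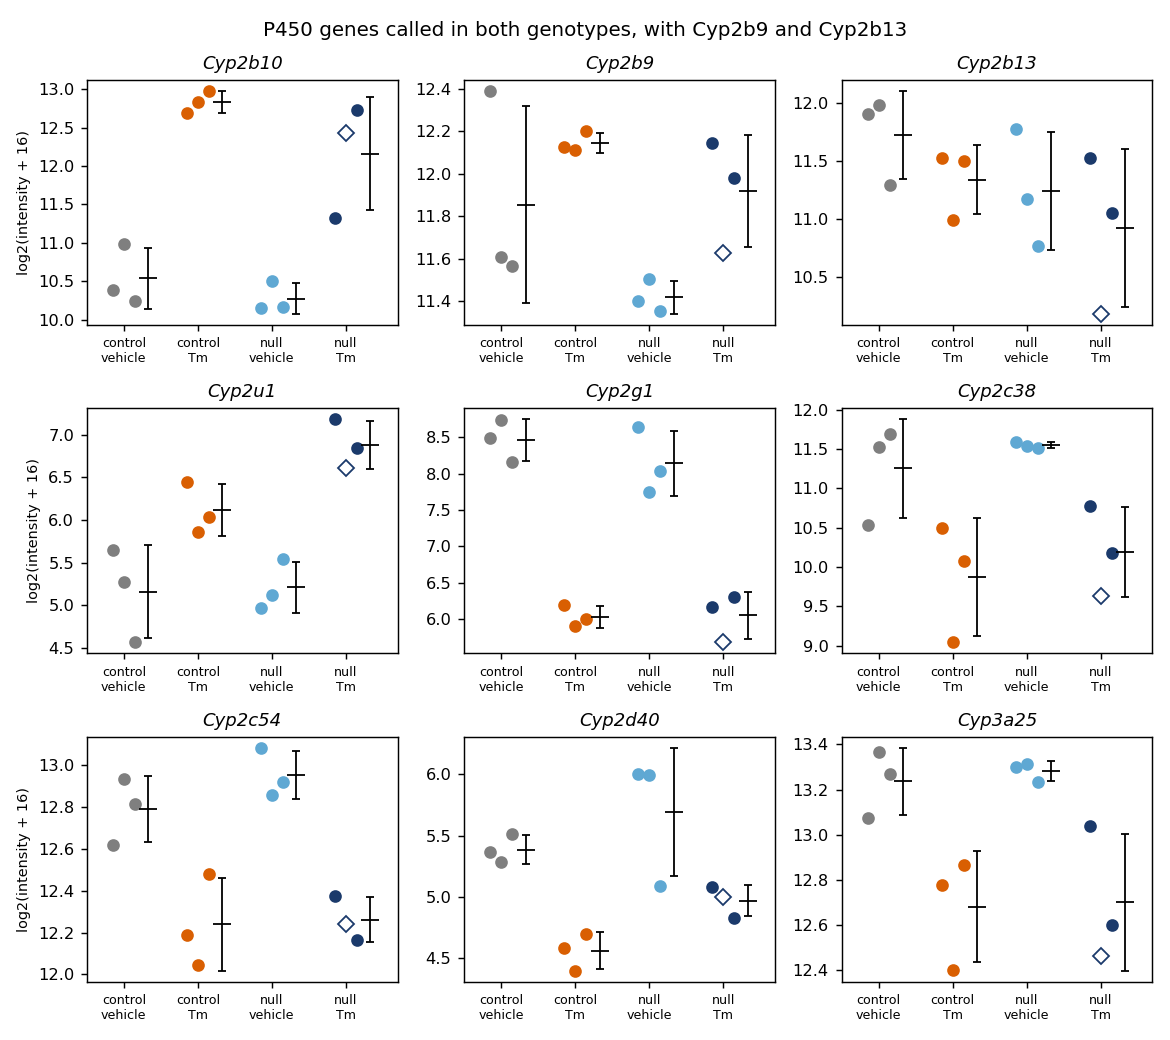
Log2 intensity of 9 P450 genes on each of the 12 arrays by group, with the mean ± SD (n = 3) beside the points and Fe-CRE+Tm replicate 2 as an open diamond. Cyp2b10 and Cyp2u1 are higher, and Cyp2g1, Cyp2c38, Cyp2c54, Cyp2d40 and Cyp3a25 lower, on every tunicamycin array than on any vehicle array of the same genotype, while the control groups of Cyp2b9 and both pairs of groups of Cyp2b13 overlap.

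In subfamily 2c, whose enzymes oxidise drugs, steroids and arachidonic acid, 3 of 11 tested genes fell in each genotype and none rose. Of the differences, 10 of 11 were negative in each, with medians of -0.30 and -0.36. Over all genes, 13.3% were called lower in control and 9.23% in null livers. The medians of all genes were also negative (-0.11 and -0.07), and their negative differences were not counted. Of the 2c genes with a negative difference, only Cyp2c68 in null livers had a higher mean deposited intensity with tunicamycin (5427 against 5107). Cyp2c38 had 10.54, 11.52 and 11.70 in control vehicle and 10.50, 9.04 and 10.08 in control tunicamycin livers, then 11.59, 11.54 and 11.52 and 10.77, 9.63 and 10.18 in null livers. The lowest control vehicle array (10.54) lay just above the highest control tunicamycin array (10.50), and the null groups were farther apart. It fell by 1.38 ± 0.39 (2.60-fold; limma adjusted p = 0.0232) and by 1.36 ± 0.39 (2.56-fold; adjusted p = 0.0352), and was -1.07 in null livers without Fe-CRE+Tm replicate 2 (adjusted p = 0.102).

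Cyp2c54 had 12.62, 12.93 and 12.82 in control vehicle and 12.19, 12.05 and 12.48 in control tunicamycin livers, with 13.08, 12.86 and 12.92 and 12.38, 12.24 and 12.16 in null livers. The groups did not overlap, and it fell by 0.55 ± 0.15 (limma adjusted p = 0.0184) and 0.69 ± 0.15 (1.62-fold; adjusted p = 0.00846), with -0.68 (adjusted p = 0.0209) without the array with kidney transcripts. Cyp2c70, the mouse enzyme that makes muricholic bile acids, had 13.12, 13.09 and 13.30 against 12.77, 12.78 and 12.80 in control livers and fell by 0.39 ± 0.13 (1.31-fold; adjusted p = 0.0439). In null livers it had 12.89, 13.03 and 13.17 with vehicle and 12.83, 12.94 and 12.72 with tunicamycin, which overlapped (-0.20, adjusted p = 0.338). Cyp2c23, an arachidonic acid epoxygenase, had 12.80, 12.43 and 12.28 against 11.99, 11.28 and 11.97 in null livers and fell by 0.76 ± 0.22 (1.69-fold; limma adjusted p = 0.0375), but was at -0.52 without Fe-CRE+Tm replicate 2 (adjusted p = 0.108). In control livers it had 12.56, 12.43 and 12.33 with vehicle and 12.08, 11.56 and 12.07 with tunicamycin, a difference of -0.54 (adjusted p = 0.102).

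Cyp2c29, the most studied constitutive 2c enzyme of mouse liver, had 12.86, 13.32 and 13.33 in control vehicle and 13.17, 12.76 and 12.99 in control tunicamycin livers, and 13.25, 13.41 and 13.28 and 12.84, 12.80 and 13.12 in null livers. The control groups overlapped, and the differences were -0.19 ± 0.17 and -0.39 ± 0.17 (limma adjusted p = 0.452 and 0.141). Cyp2c39, a retinoic acid hydroxylase, varied by several log2 within groups. It had 8.15, 12.41 and 12.36 in control vehicle and 11.55, 6.33 and 6.87 in control tunicamycin livers, then 12.30, 12.23 and 12.22 in null vehicle and 6.86, 6.22 and 11.07 in null tunicamycin livers. A single vehicle array (Fe+CRE+ replicate 1) was low and 2 tunicamycin arrays (Fe+CRE+Tm replicate 1 and Fe-CRE+Tm replicate 3) were high. The differences of -2.72 ± 1.54 and -4.20 ± 1.54 were the most negative of the 50 in control livers and did not pass the test (adjusted p = 0.229 and 0.0864), and the null one was -3.29 without Fe-CRE+Tm replicate 2 (adjusted p = 0.211).

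Subfamily 2d, the relatives of the human debrisoquine hydroxylase, had 8 tested genes, all with negative differences in both genotypes (median -0.30 in each). Of these, 2 fell in control and 1 in null livers, against 13.3% and 9.23% of all genes called lower. The uniform sign depended on the scaling. Mean deposited intensities were higher with tunicamycin for Cyp2d34 in control livers (55.3 against 54.0) and Cyp2d13 in null livers (1709 against 1689). The rest of the subfamily was lower in each genotype. Cyp2d40 had 5.36, 5.28 and 5.51 in control vehicle and 4.58, 4.40 and 4.70 in control tunicamycin livers, with 6.00, 5.99 and 5.09 and 5.08, 5.0 and 4.83 in null livers. The groups did not overlap, though in null livers 5.09 with vehicle lay next to 5.08 with tunicamycin. On the log2(value + 16) scale it fell by 0.82 ± 0.22 (limma adjusted p = 0.0163) and 0.72 ± 0.22 (adjusted p = 0.0421), with -0.74 (adjusted p = 0.07) without Fe-CRE+Tm replicate 2. Its deposited intensities were 23.0 to 28.8 against 5.19 to 9.77 in control and 16.9 to 49.9 against 12.9 to 17.9 in null livers, so the size of the fall depended on the pseudocount. Over the alternatives it was -1.66 to -0.33 in control and -1.14 to -0.35 in null livers, with the call kept in 21 and 7 of 25. Cyp2d22 had 10.58, 11.19 and 11.22 against 10.19, 9.99 and 10.34 in control livers and fell by 0.82 ± 0.23 (1.77-fold; adjusted p = 0.021). In null livers it had 11.14, 11.19 and 10.73 against 10.65, 9.91 and 10.44, a difference of -0.69 (adjusted p = 0.061), and its groups overlapped in neither genotype. In subfamily 2j, epoxygenases of arachidonic acid, all 4 tested genes had negative differences in both genotypes (medians -0.29 and -0.22) and none was called. The sign depended on the scaling and on the probe set for Cyp2j5. The mean deposited intensity of its chosen probe set was higher with tunicamycin in control (5654 against 5246) and null livers (5686 against 5189), while the rest of these genes were lower. The other, dimmer Cyp2j5 probe set had positive differences (0.61 ± 0.52 and 0.67 ± 0.52), and the other Cyp2j6 probe set negative ones (-0.57 and -0.54).

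Cyp2r1, the main vitamin D 25-hydroxylase, had 9.69, 9.31 and 9.57 in control vehicle and 8.92, 8.69 and 8.83 in control tunicamycin livers and fell by 0.71 ± 0.22 (1.64-fold; limma adjusted p = 0.0364). In null livers it had 8.35, 8.55 and 9.08 with vehicle and 8.37, 8.10 and 7.60 with tunicamycin, which overlapped (-0.64, adjusted p = 0.0754). Cyp2e1, the ethanol- and acetaminophen-oxidising enzyme of pericentral hepatocytes, stayed between 13.60 and 13.78 on all 12 arrays. Its differences were -0.00 ± 0.11 and 0.03 (95% intervals -0.25 to 0.24 and -0.21 to 0.27; adjusted p = 0.982 and 0.9).

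In family 3, the steroid and drug oxidising enzymes of the pregnane X receptor, 1 of 4 tested genes fell in each genotype. Among all genes, 13.3% were called lower in control and 9.23% in null livers. Cyp3a25 had 13.08, 13.36 and 13.27 in control vehicle and 12.78, 12.40 and 12.87 in control tunicamycin livers, with 13.30, 13.31 and 13.23 and 13.04, 12.46 and 12.60 in null livers. The groups did not overlap, and it fell by 0.56 ± 0.18 (1.47-fold; limma adjusted p = 0.0376) and 0.58 ± 0.18 (adjusted p = 0.0429), with -0.46 (adjusted p = 0.123) without Fe-CRE+Tm replicate 2. Cyp3a11, the main drug-oxidising 3a enzyme of mouse liver, stayed between 13.56 and 13.72, with differences of -0.08 ± 0.11 and -0.03 (95% intervals -0.31 to 0.16 and -0.27 to 0.21). Cyp2e1 and Cyp3a11 were at 70.0 to 87.5% and 69.5 to 87.0% of the highest deposited intensity of their array, and were the only 2 members above 50% on every array.

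In family 1 none of the 3 tested genes was called in either genotype (25.0% of all genes in control and 16.8% in null livers). Cyp1a1, the polycyclic hydrocarbon-inducible enzyme, had 5.69, 5.70 and 5.83 in control vehicle and 5.75, 5.74 and 5.75 in control tunicamycin livers, then 6.45, 5.86 and 5.76 and 5.97, 5.97 and 6.12 in null livers. The groups overlapped, and both differences were 0.00 at 2 decimals (95% interval -0.37 to 0.37 in control livers; limma adjusted p = 0.992 and 0.991). Cyp1a2, the constitutive caffeine-oxidising enzyme, had 12.56, 12.81 and 12.88 against 12.28, 12.08 and 12.57 in control livers, and 12.84, 13.18 and 12.88 against 12.59, 12.42 and 13.02 in null livers. Its groups overlapped in both genotypes, and its differences were -0.44 ± 0.19 and -0.29 (adjusted p = 0.115 and 0.337).

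In family 4, the fatty acid omega-hydroxylases, none of 10 tested genes was called in control and 1 fell in null livers. Of all genes, 25.0% were called in control livers, and 9.23% were called lower in null livers. Cyp4f14, which inactivates leukotriene B4, had 10.98, 11.49 and 11.47 against 10.48, 10.65 and 10.78 in null livers and fell by 0.68 ± 0.21 (1.60-fold; limma adjusted p = 0.0478). It was also at -0.68 without Fe-CRE+Tm replicate 2 (adjusted p = 0.0823), and in control livers it had 11.91, 11.27 and 11.45 against 10.98, 10.62 and 11.21 (-0.61, adjusted p = 0.0565). Cyp4a14, the PPARα-induced lauric acid hydroxylase, had 12.94, 12.87 and 13.05 in control vehicle and 12.42, 12.58 and 12.66 in control tunicamycin livers, which did not overlap, with a difference of -0.40 ± 0.15 (adjusted p = 0.0737). In null livers it had 13.03, 13.19 and 13.17 against 13.11, 12.58 and 12.84, which overlapped (-0.28, adjusted p = 0.235). Cyp4a10 had no probe set with a single symbol and has no value here.

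Across the 12 arrays the members with values most like those of Cyp4a14, by Pearson's r, were Cyp2d13 (0.867), Cyp2j13 (0.855), Cyp2d26 (0.815), Cyp2d22 (0.784) and Cyp4f13 (0.783). Over the 11 arrays without Fe-CRE+Tm replicate 2 these were 0.847, 0.848, 0.789, 0.750 and 0.767. For Cyp2e1 they were Cyp4b1 (0.720), Cyp2s1 (0.659), Cyp4a31 (0.565), Cyp1b1 (0.522) and Cyp2j5 (0.464), which became 0.130, 0.00548, 0.216, -0.414 and 0.0695 without that array. The likeness to Cyp2e1 rested on 1 array. The arrays share their scaling and the treatment, so these values are descriptions.

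Several members stood apart on Fe-CRE+Tm replicate 2, the array with kidney transcripts. Of the 56 genes, 8 were higher there than on any other array, 4 of them by more than 0.5 log2. Cyp2j11, which was too dim elsewhere to be tested, was 9.33 there and 4.09 to 4.79 on the other arrays. Cyp4b1 was 11.54 there and 8.44 and 9.27 in the other null tunicamycin livers, and its difference in null livers was 1.01 ± 0.57 with that array (limma adjusted p = 0.263) and 0.12 without it (adjusted p = 0.814). Cyp1b1 was 8.31 there and 6.55 and 5.77 in the others, with a difference of 1.17 ± 0.49 (adjusted p = 0.13) that was 0.45 without it (adjusted p = 0.34). Cyp2s1 was 7.18 there and 5.86 and 5.37 in the others, and its difference of 0.89 (adjusted p = 0.122) was 0.36 without it (adjusted p = 0.322). None of the 3 tested differences passed the test with or without the array. A further 10 members were lowest on that array, 1 of them by more than 0.5 log2 (Cyp2b13, 0.58 below).

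**Figure D3:**
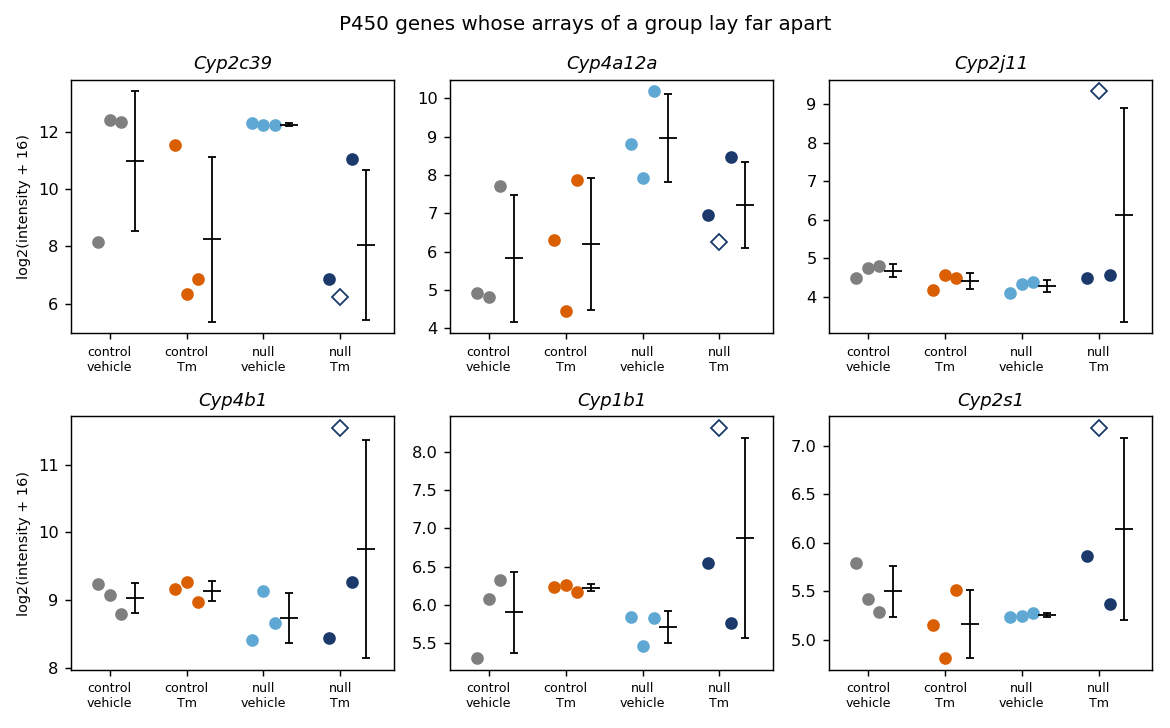
Log2 intensity of 6 P450 genes on each of the 12 arrays by group, with the mean ± SD (n = 3) beside the points and Fe-CRE+Tm replicate 2 as an open diamond. Cyp2j11, Cyp4b1, Cyp1b1 and Cyp2s1 are highest on that 1 array (9.33, 11.54, 8.31 and 7.18), while Cyp2c39 and Cyp4a12a spread over several log2 within groups.

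Between genotypes no P450 gene was called. With vehicle, 0 of the 50 genes passed limma's adjusted threshold (0% of all genes; smallest adjusted p = 0.988), and 4 had an unadjusted p under 0.05, against 4.10% of all genes. These were Cyp4a12a, Cyp2r1, Cyp2c68 and Cyp3a44. The groups did not overlap for 10 of the 50, against 8.15% of all genes. Leaving out any replicate gave 0 calls, and the fit with replicate number as a block gave 1, Cyp4a12a. With tunicamycin, 0 of the 50 passed (3.99% of all genes; smallest adjusted p = 0.078), 6 had an unadjusted p under 0.05 (15.6% of all genes), and 8 did not overlap (21.8% of all genes). Without Fe-CRE+Tm replicate 3 the count was 1, Cyp4a31 (0.92, adjusted p = 0.0129), and with array quality weights it was 4. Without Fe-CRE+Tm replicate 2 it was 0 (3.63% of all genes).

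Cyp4a12a, the male-biased 20-HETE synthase, had 4.93, 4.83 and 7.72 in control vehicle and 8.81, 7.91 and 10.18 in null vehicle livers. The lowest null array (7.91) lay above the highest control array (7.72), and the difference of 3.14 ± 0.97 had a 95% interval of 1.04 to 5.25 (limma adjusted p = 0.988). With tunicamycin it had 6.30, 4.44 and 7.86 in control and 6.96, 6.25 and 8.46 in null livers, which overlapped (1.02 ± 0.97). Cyp2r1, whose values are given above, was lower in null livers on every array with vehicle (-0.87 ± 0.22; 95% interval -1.36 to -0.38) and with tunicamycin (-0.79 ± 0.22; limma adjusted p = 0.0812, and 0.116 at -0.83 without Fe-CRE+Tm replicate 2). Cyp2c68 had 13.43, 12.82 and 12.83 in control and 12.33, 12.52 and 12.46 in null vehicle livers, which did not overlap (-0.59 ± 0.19), and with tunicamycin 12.76, 12.90 and 12.97 against 12.56, 12.46 and 11.996 (-0.54 ± 0.19; adjusted p = 0.188, and 0.194 at -0.60 without that array). Cyp3a44, a female-biased 3a gene, had 9.21, 9.33 and 8.83 against 8.65, 8.37 and 8.89 with vehicle, which overlapped (-0.49 ± 0.20). With tunicamycin it had 9.23, 8.92 and 8.66 against 8.22, 8.54 and 8.14, which did not (-0.64 ± 0.20; adjusted p = 0.124, and 0.0887 without that array).

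Cyp4a31 had the smallest adjusted p of the 50 between genotypes under tunicamycin. It had 9.82, 9.48 and 9.61 in control and 10.35, 10.75 and 9.86 in null tunicamycin livers, with no overlap and a difference of 0.69 ± 0.19 (limma adjusted p = 0.078), or 0.47 without Fe-CRE+Tm replicate 2 (adjusted p = 0.185). With vehicle it had 10.09, 9.99 and 10.05 against 10.24, 10.33 and 10.29. Cyp2u1 was higher in null than control tunicamycin livers on every array (0.76 ± 0.27; adjusted p = 0.184, and 0.145 at 0.90 without that array), and Cyp2s1 was 5.15, 4.81 and 5.51 against 5.86, 7.18 and 5.37, which overlapped (0.98 ± 0.36; adjusted p = 0.202, and 0.372 at 0.46 without it). Cyp2b10 had a difference of -0.67 ± 0.31 (95% interval -1.35 to 0.01; adjusted p = 0.33, and 0.275 at -0.81 without it).

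**Figure D4:**
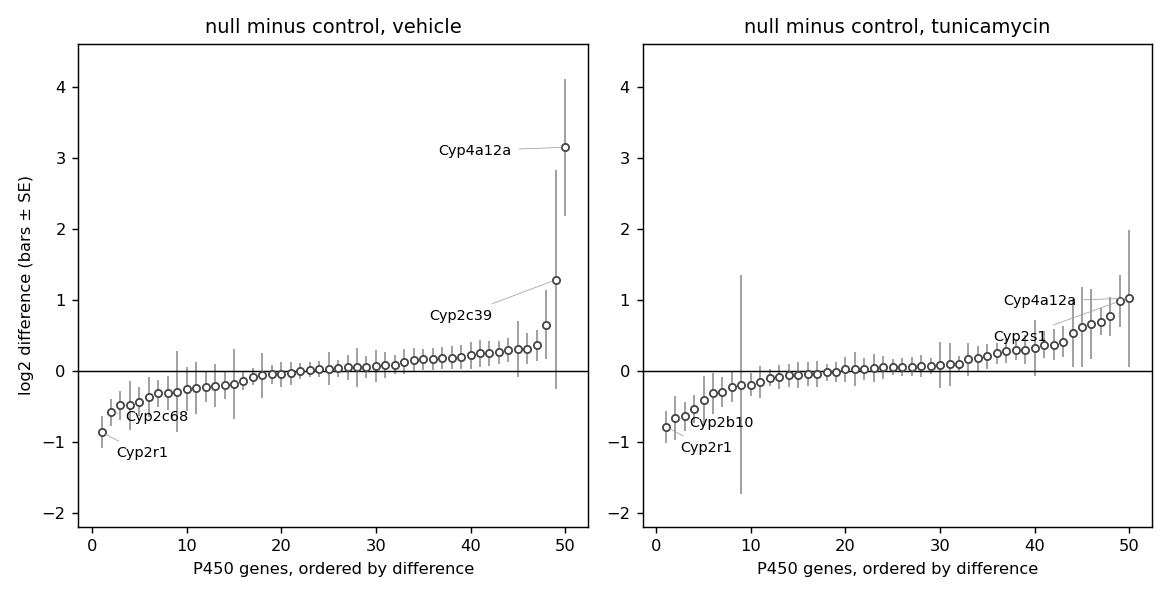
Difference between null and control livers (log2, ± standard error, 3 arrays in each group) for the 50 tested P450 genes in order of the difference, with vehicle and tunicamycin in separate panels. No gene was called in either panel, and with vehicle Cyp4a12a (3.14) stands farthest from 0, with a standard error of 0.97.

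The test of whether the tunicamycin response differed between genotypes called 0 of the 50 genes (0.837% of all genes) with limma, with each alternative, and without Fe-CRE+Tm replicate 2 (0.886% of all genes). At an unadjusted p under 0.05 there was 1 gene, Cyp2s1 (8.26% of all genes), whose response was 1.22 ± 0.51 higher in null livers (limma adjusted p = 0.517) and 0.70 without that array. For Cyp2b10 the null response minus the control response was -0.41 (95% interval -1.37 to 0.55), and for Cyp2u1 it was 0.71 (-0.13 to 1.56). For Cyp2g1 it was 0.34 (-0.40 to 1.08), for Cyp2c38 0.02 (-1.19 to 1.24), for Cyp2c54 -0.14 (-0.61 to 0.32), for Cyp2d40 0.10 (-0.58 to 0.78) and for Cyp3a25 -0.03 (-0.57 to 0.52). The intervals of Cyp2b10, Cyp2u1, Cyp2g1 and Cyp2c38 reach beyond 1 log2. In the same order of genes, these values without Fe-CRE+Tm replicate 2 were -0.54, 0.85, 0.52, 0.30, -0.13, 0.08 and 0.09. The 2 treatment comparisons share no array, but they share the normalization and the estimate of the spread. In both, 7 genes were called in the same direction, which is 70% of the 10 called in control and 77.8% of the 9 called in null livers. The sign was the same for 40 of the 50. The matching shares over all genes were not computed, so these counts do not set P450 genes apart from other genes.

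The genes that serve P450 enzymes are given next, from lists, with differences after tunicamycin in control livers first and null livers second. Beside these counts, 11.6% of all genes were called higher and 13.3% lower in control livers. In null livers the shares of all genes were 7.59% and 9.23%. No list was tested against these shares. Without Fe-CRE+Tm replicate 2, 46 of the 56 genes of these lists called in null livers were still called and 0 turned sign. The 10 lost were Aldh1a1, Aox1, Ugt2b5, Ugt2b36, Fech, Cyp17a1, Cyp46a1, Acot4, Sult2a8 and Dbp. Of 8 called between genotypes with tunicamycin, 7 were kept and Acot2 was lost. In that comparison 3.99% of all genes were called. The electron partners, which include P450 reductase and cytochrome b5, had 0 of 5 tested genes called in each genotype by limma (medians -0.12 and -0.15), with 1 and 0 at an unadjusted p under 0.05 and Cyb5r3 at -0.54 in control livers (adjusted p = 0.064) and -0.33 in null livers. Of 13 genes of heme synthesis and breakdown, 3 rose and 4 fell in control livers and 1 rose and 5 fell in null livers. Alas1, the rate-limiting enzyme of heme synthesis, fell in both (-1.51 and -1.57; limma adjusted p = 2.76e-05 and 4.62e-05). Alad (-0.62 and -0.73) and Urod (-0.65 and -0.62), later enzymes of the pathway, were also called lower in both. Hmox2, a heme oxygenase, rose by 0.77 and 0.86. Ppox, another heme synthesis enzyme, rose by 1.24 in control livers and was lower in null than control livers with tunicamycin (-0.99; adjusted p = 0.00754, and 0.0263 at -0.90 without Fe-CRE+Tm replicate 2), while the test of its difference in response gave -1.18 (adjusted p = 0.0586). With arrays centred on their medians and with the values as deposited, the list had 3 higher and 2 lower in control livers under both, and 2 higher with 2 and 1 lower in null livers. Lost under both were Alad and Urod in control and Urod, Fech and Abcb6 in null livers, and Alad in null livers was also lost as deposited.

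Of 24 receptors and factors that act on P450 genes, 2 rose and 11 fell in control livers and 2 rose and 5 fell in null livers (medians -0.60 and -0.43). Of all genes, 11.6% were called higher and 13.3% lower in control and 7.59% and 9.23% in null livers (medians -0.11 and -0.07). With centred arrays and with the values as deposited, 2 were higher and 9 lower in control livers under both, and 2 higher with 3 lower, then 4 higher with 2 lower, in null livers. Nr1i3, the constitutive androstane receptor, fell by 2.83 ± 0.27 in control livers (limma adjusted p = 1.82e-05) and by 1.75 ± 0.27 in null livers (adjusted p = 0.00112), while Cyp2b10, its usual target, rose in both. Ahr, the aryl hydrocarbon receptor, fell in both (-1.49 and -1.20), as did Hlf, a PAR bZIP factor (-2.10 and -1.08), and Foxa2, a forkhead factor (-1.88 and -1.27). In null livers the call of Foxa2 was lost with both other scalings and that of Hlf with the values as deposited. Foxa3, a related factor, rose by 0.95 and 1.01. With tunicamycin 3 of the 24 were higher in null than control livers: Hlf (1.36; adjusted p = 0.00244), Nr1h4, the bile acid receptor (0.87; adjusted p = 0.00714), and Nr1i3 (1.41; adjusted p = 0.0118). These differences were 1.51 (adjusted p = 0.00196), 0.92 (adjusted p = 0.0114) and 1.68 (adjusted p = 0.00308) without Fe-CRE+Tm replicate 2. The difference in response itself did not pass the test for Hlf (1.03; limma adjusted p = 0.179), Nr1h4 (0.62; adjusted p = 0.362) or Nr1i3 (1.07; adjusted p = 0.377), nor without that array (1.18, 0.68 and 1.35; adjusted p = 0.0974, 0.323 and 0.116). In the growth hormone axis, 7 of 9 genes fell in control livers, and 6 fell and 1 (Bcl6, 1.26) rose in null livers. With both other scalings 5 of the 7 calls were kept in each genotype. Lost were Jak2 and Stat5b in control and Jak2 and Stat5a in null livers. Cux2, a female-biased repressor, fell in both (-2.87 and -2.68), as did the feedback inhibitors of growth hormone signalling Socs2 (-2.89 and -2.53) and Cish (-1.77 and -1.59).

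Among known PPARα targets outside P450, 6 rose and 7 fell of 22 in control and 5 rose and 2 fell in null livers. All genes had 11.6% called higher and 13.3% lower in control and 7.59% and 9.23% in null livers. Fgf21, a fasting hormone, rose by 4.98 and 4.61, Acot2 by 2.21 and 2.77 and Pdk4, a brake on pyruvate oxidation, by 1.67 and 2.48, whereas Acot3 fell (-4.99 and -3.80). Of the PPARα calls, those of Cd36 in control and Acot4 in null livers were lost with both other scalings. Of 3 tested aryl hydrocarbon receptor targets outside P450, 2 fell in control livers, and 1 rose and 1 fell in null livers. The control call of Nfe2l2 was lost with both other scalings. Nqo1, a quinone reductase, fell (-1.59 and -1.02), and Tiparp rose by 0.99 in null livers. Of 17 P450 genes outside families 1 to 4, 3 fell in each genotype, with Cyp26a1, the retinoic acid hydroxylase, down (-2.76 and -2.10) and Cyp46a1, a cholesterol hydroxylase, also down (-1.02 and -0.98). Ptgis, the prostacyclin synthase, fell by 0.56 in control livers, and Cyp17a1, a steroid hydroxylase, by 1.31 in null livers. The calls of Ptgis and Cyp17a1 were lost with both other scalings and that of Cyp46a1 in null livers with the values as deposited. Without Fe-CRE+Tm replicate 2, 1 of the 17 fell in null livers, Cyp26a1 (-1.68), against 7.93% of all genes called lower.

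Counts for other detoxifying enzymes follow, with no test between lists. Among all genes, 11.6% were called higher and 13.3% lower in control livers, and 7.59% and 9.23% in null livers. Of 27 flavin monooxygenases and other phase I enzymes, 17 fell in control and 12 in null livers and none rose (medians -0.84 and -0.65). Akr1c20, an aldo-keto reductase, fell in both (-1.78 and -1.77), as did the flavin monooxygenase Fmo4 (-1.98 and -1.52) and the alcohol dehydrogenase Adh4 (-1.73 and -1.68). Ces1d, a carboxylesterase, fell by 1.90 in control livers and was 1.02 higher in null than control livers with tunicamycin (limma adjusted p = 0.0339, and 0.0496 at 1.07 without Fe-CRE+Tm replicate 2), a genotype call lost with both other scalings, with a difference in response of 1.16 (adjusted p = 0.199). Of 11 glucuronosyltransferase genes, 7 fell in control and 5 in null livers, with Ugt2a3 down (-1.19 and -1.35) and Ugt2b36 down (-0.63 and -0.50). Of 19 glutathione transferases, 7 fell in control and 3 in null livers, with Gsta4 (-1.51 and -0.82), Gstk1 (-0.87 and -0.72) and Gstm7 (-0.80 and -0.74) called lower in both. Of 11 sulfotransferase genes, 1 rose and 5 fell in control and 1 rose and 3 fell in null livers. Sult1b1 fell (-1.16 and -1.26), and Papss1, which makes the sulfate donor, rose by 2.88 and 1.40 and was lower in null than control livers with tunicamycin (-1.45; adjusted p = 0.0238, and 0.00506 at -1.78 without Fe-CRE+Tm replicate 2), with a difference in response of -1.48 (adjusted p = 0.236). No called gene of these lists changed sign with the other scalings, but fewer were called: of the glucuronosyltransferases 3 and 2 of 7 in control and 2 of 5 in null livers, and of the glutathione transferases 5 and 4 of 7 in control and 0 of 3 in null livers. Of the phase I enzymes 14 of 17 in control and 9 of 12 in null livers kept the call under each. Of the sulfotransferase list 3 of 6 kept it in control and 3 of 4 in null livers under each.

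**Figure D5:**
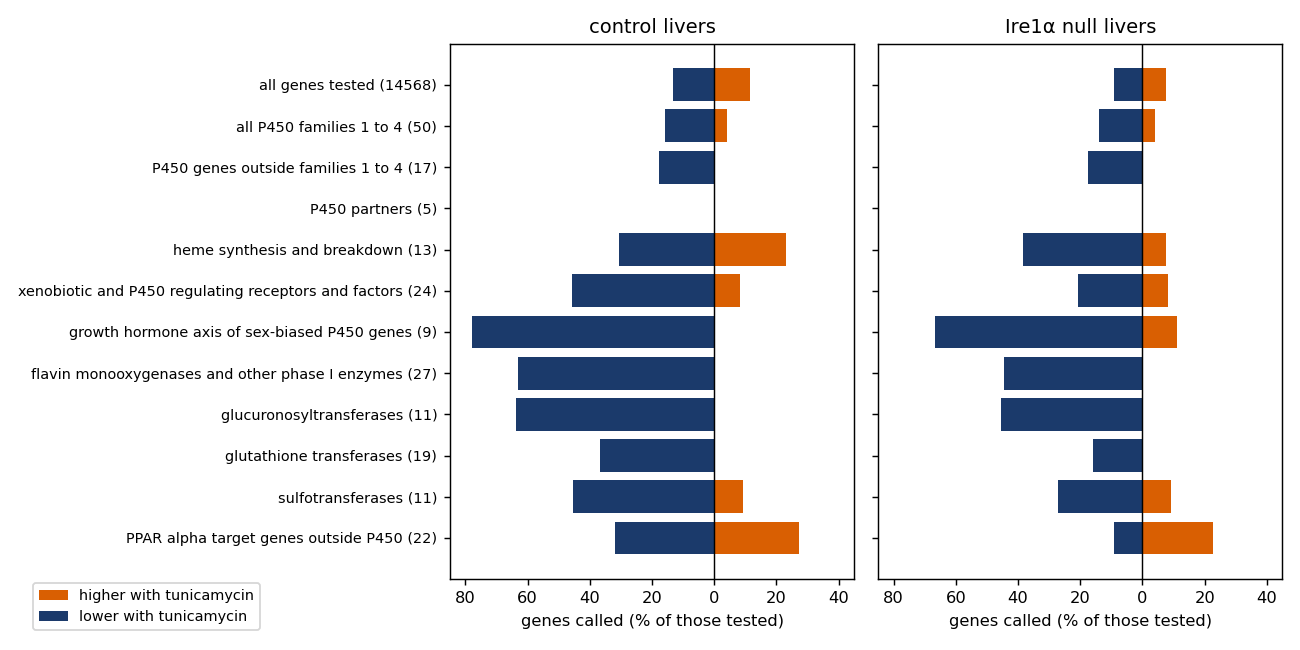
Percent of the tested genes of each list called higher (right) and lower (left) after tunicamycin in control and null livers, with all genes tested at the top. All genes stand at 11.6% higher and 13.3% lower in control livers, and the other phase I enzymes have 17 of 27 genes lower and none higher.

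Cell type markers gave these values beside the P450 genes, where 25.0% of all genes were called in control and 16.8% in null livers. Of 14 general hepatocyte markers, 1 rose (G6pc, 0.57) and 1 fell (Asgr1, -0.36) in control livers and limma called 0 in null livers, where 4 had an unadjusted p under 0.05. Of 10 pericentral genes, those of the lobule zone richest in P450 enzymes, 1 rose and 1 fell in control livers. In null livers 1 rose and 2 fell, and Lect2 was down in both genotypes (-1.10 and -1.17). Rhbg went the other way, from 8.714 to 9.205 in control vehicle livers to 9.626 or more in control tunicamycin livers. In null livers Rhbg was at 9.041 to 9.822 with vehicle and 10.01 to 10.47 with tunicamycin. Slc1a4 was at 5.792 to 6.327 in null vehicle and 6.625 to 7.382 in null tunicamycin livers. Of 8 periportal genes, 4 fell in control and 2 in null livers, with Hal, the histidine lyase, down (-2.36 and -1.48) and Aldh1b1 down (-1.98 and -1.64). Of 11 Kupffer cell and macrophage markers, 1 and 2 fell, with Adgre1 called lower in both (-0.75 and -0.81) and Timd4 in null livers, and 0 were called in either genotype with the other scalings. The call of Asgr1 was also lost with both. The lists of endothelial, stellate, bile duct and white blood cell markers had 0 called in both genotypes by limma. With the other scalings, 1 stellate cell and fibroblast marker was called higher in null livers (limma adjusted p = 0.043 centred and 0.0324 as deposited). In those livers 1 hepatocyte marker was also called higher with the values as deposited (limma adjusted p = 0.0404). Of 22 kidney markers, 1 fell in control livers (Slc5a2, -1.03) and 0 were called in null livers, where the median difference was 1.56 and, without Fe-CRE+Tm replicate 2, 0.01 with 1 gene lower. The part of these markers in the P450 values was not tested.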

How the data were processed

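The deposited table holds 1 intensity per probe set and array on a linear scale, made by the authors; the algorithm, scaling and background step were not given in the sources used here. Per the labels' protocols, biotin-labelled cRNA was made from 6 µg of total RNA. Of 45101 probe sets, 34945 had 1 gene symbol in the platform annotation, 932 several and 9160 none; 64 controls were left out. All 56 P450 symbols were looked up by gene ID and 0 changed. The authors' deposited intensities were turned into log2 values with a pseudocount of 16 and quantile normalized, and the dimmest 30% of probe sets were left out. One limma model (lmFit and eBayes, limma 3.58.1, R 4.3.3) was fitted to all 12 arrays, with 8 residual degrees of freedom. Precision is limited by 3 arrays in each group.

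Groups came from the titles. Members and gene lists were chosen with earlier results of these data known. Named with all array values were anchor genes of each family and the 12 called members with the largest difference in each comparison; from each list, up to 4 called genes with the smallest p. Cyp4a12a, Cyp2c68, Cyp3a44, Cyp4a31, Cyp2c39 and the genes high on 1 array were named after their values were seen. Alternatives were another pseudocount, filter, scaling and probe set rule, array weights, the replicate number as a block, covariates and each array left out; 3 of them were added after the data were examined. The fits were tested on simulated data. Sequences came from RefSeq GRCm38.p6 (Biopython 1.88).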

Additional observations from a re-analysis of the deposited data

How the results depend on the processing

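Calls of Cyp2b10 and Cyp2g1 were kept in all 26 alternatives in both genotypes, with Cyp2b10 at 2.10 to 3.06 in control and 1.61 to 2.32 in null livers. For Cyp2c54 the call was kept in 26 in null and 19 in control livers, for Cyp3a25 in 17 in control and 9 in null, for Cyp2c70 in 10 in control, for Cyp4f14 in 13 in null and for Cyp2d40 in 7 of 25 in null livers. In control livers the 10 calls became 4 with arrays centred on their medians, 4 on the deposited values, 2 with a covariate for the actin ratio, 16 with array quality weights and 2 to 12 with each array left out (2 without Fe+CRE+ replicate 3, 4 and 3 without Fe+CRE+Tm replicates 1 and 2). In null livers the 9 became 5 with centred arrays, 4 as deposited and 4 to 11 with each array left out (5 and 4 without Fe-CRE+ replicates 1 and 2, 4 without Fe-CRE+Tm replicate 2). With replicate number as a replicate block both counts were 7 (14%), against 23.2% of all genes in control and 14.7% in null livers. With each array left out, 17.7% to 27.9% of all genes were called in control and 11.1% to 16.6% in null livers. Between genotypes the block called 1 gene with vehicle (Cyp4a12a, 3.14, limma adjusted p = 0.0243); correlations of same-numbered arrays were of mixed sign (-0.41 to 0.49 over 12 pairs), so the numbers were not taken to pair the samples. With tunicamycin, array weights called 4 (Cyp2u1, Cyp3a44, Cyp4a31 and Cyp2r1) and leaving out an array 0 to 1 (Cyp4a31, without Fe-CRE+Tm replicate 3), against 0. The difference in response had 0 calls under each alternative. Among the genes with a test, 781 values kept direction and side of the threshold, 128 lost the call, 22 gained one and 1 reversed: Cyp2u1 in control livers was -0.046 (adjusted p = 0.88) with a pseudocount of 1, where its other probe set was the brighter. Probe sets near the background, such as those of Cyp2u1 and Cyp2d40, and those near the top of the scale, Cyp2e1 and Cyp3a11, limit what the arrays can show.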
